A study of Mus musculus with 6 samples.

Results

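The major urinary protein family was taken as every gene in the count tables whose symbol is Mup or Mup-ps followed by a number, which gave 35 of the 37991 gene identifiers. Of these, 18 were Mup genes and 17 were Mup-ps pseudogenes, copies annotated as not encoding a protein. RNA was sequenced from 3 groups of 2 libraries each, drawn from 4 mice. All mice carried the Alb-Cre transgene (TgAlbCre), in which the albumin promoter makes hepatocytes express Cre recombinase. The high-fat diet lasted 27 weeks for every animal, and the labelled age is 35 weeks. The tumours were primary tumours of mice that in addition carried a conditional Kap1 allele (TgAlbCreKap1lox), and the KAP1-deleted livers were liver tissue of mice of that genotype. The control livers came from mice with the Alb-Cre transgene alone. By the mouse codes in the sample titles, tumour 1 and KAP1-deleted liver 1 came from 1 mouse, and so did tumour 2 and KAP1-deleted liver 2. The promoter limits the deletion to cells that express albumin, so other cells of the liver keep the gene. No mouse without Cre was among the samples.

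Major urinary proteins are small secreted lipocalins, barrel-shaped carriers of hydrophobic molecules. Hepatocytes make them in large amounts, the kidney passes them into the urine, and there they bind volatile pheromones and signal sex and identity between mice. In mouse liver the family is known for higher expression in males, driven by the pulsed secretion of growth hormone and helped by androgens and glucocorticoids. The genes arose by repeated duplication in 1 cluster on chromosome 4, and many copies are nearly identical.

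Counts in genes ranged from 39723997 to 62178752 per library. Levels are given as CPM, counts per 1000000 after TMM scaling, which sets the libraries to a common effective size. Trim28, which encodes KAP1, was at 5.22 and 4.59 CPM in the tumours, 5.06 and 6.01 CPM in the KAP1-deleted livers, against 32.5 and 35.9 CPM in the control livers. It was below both control livers in all 4 libraries of the deleted genotype. The 4 Y-linked genes examined (Ddx3y, Eif2s3y, Kdm5d and Uty) had at least 26.3 CPM in every library and Xist at most 1.41 CPM, so sex did not differ between the groups. All 6 hepatocyte markers examined (Alb, Apoa1, Ttr, Serpina1a, Cps1 and Tat) were found in all 6 libraries. With 2 libraries per group, the p-values reflect only how far these 6 libraries differ. The main fit shared its estimate of spread over all 6 libraries, so each p-value also depends on the group that is not compared.

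Members differed widely in how well their reads can be told apart. Each transcript of the GRCm38 reference was broken into overlapping words of 31 bases, and the words found in no other of 55450 genes were counted. A central group of 12 genes (Mup1, Mup2, Mup7, Mup8, Mup9, Mup10, Mup11, Mup13, Mup14, Mup16, Mup18 and Mup19) had 0% to 29.8% words of their own. For Mup19 this share was 0%, so no 31-base stretch of it is private to it. More distinct were Mup6 with 75.7%, Mup3 with 69.9%, Mup21 with 66.2%, Mup5 with 63.0% and Mup4 with 62.0% own words. Mup20, which encodes darcin, a pheromone of male urine, had 35.5% own words, and the pseudogene Mup-ps19 shared 94.1% of its words with Mup20. Of the words of the Mup genes, 92.4% to 99.2% were found in no gene outside the family. For this share the family was all 49 Mup and Mup-ps symbols of the reference, not only the 35 members. Reads may therefore have been assigned to the wrong member. Moves between members leave the sum over the family unchanged. Counting a read for several members, or leaving it out, would change the sum, and how such reads were treated is not given.

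To show how alike the copies are beside their start sites, promoter sequences were read from RefSeq. RefSeq windows from 250 bases before to 50 bases after an annotated start (build GRCm38.p6) were available for 12 of the 18 Mup genes. The windows of Mup10 and Mup2, both of the central group, were identical in 96.6% of aligned bases. Mup21 and Mup3 were identical in 94.2%, and Mup10 and Mup3 in 87.8%. The 250 bases before the start, all on the minus strand, are shown for 4 genes. They are Mup10, a central gene with high liver counts (chr4:60582156-60582405), the more distinct Mup3 (chr4:62087318-62087567) and Mup21 (chr4:62150842-62151091), and Mup4, which had almost no counts (chr4:59960668-59960917).
Mup10: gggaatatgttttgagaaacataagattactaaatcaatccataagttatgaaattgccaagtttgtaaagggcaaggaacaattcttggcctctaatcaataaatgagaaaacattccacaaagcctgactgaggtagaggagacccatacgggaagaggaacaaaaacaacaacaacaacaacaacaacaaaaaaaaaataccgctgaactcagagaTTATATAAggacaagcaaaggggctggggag
Mup3: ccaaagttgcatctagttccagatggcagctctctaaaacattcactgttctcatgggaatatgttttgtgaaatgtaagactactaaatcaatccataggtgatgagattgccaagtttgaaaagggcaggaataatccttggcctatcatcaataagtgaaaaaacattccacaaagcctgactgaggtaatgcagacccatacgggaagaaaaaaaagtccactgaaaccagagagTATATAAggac
Mup21: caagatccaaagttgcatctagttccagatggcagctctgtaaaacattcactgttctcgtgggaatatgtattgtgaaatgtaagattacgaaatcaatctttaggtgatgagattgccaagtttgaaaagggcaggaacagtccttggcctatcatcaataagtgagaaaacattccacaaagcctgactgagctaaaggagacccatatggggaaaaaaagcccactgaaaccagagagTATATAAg
Mup4: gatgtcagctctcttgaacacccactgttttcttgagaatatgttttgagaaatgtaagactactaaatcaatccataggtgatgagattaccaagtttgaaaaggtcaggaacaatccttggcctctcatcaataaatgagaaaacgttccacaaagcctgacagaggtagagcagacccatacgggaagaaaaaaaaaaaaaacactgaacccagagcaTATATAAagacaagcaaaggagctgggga
Capitals mark the TATA-like motif TATATAA on either strand, with overlapping matches joined. It was found in 11 of the 12 Mup windows and in 3.24% of all 32851 RefSeq windows. The motif was chosen after the windows had been seen. Its distance from the start differs between the windows (first base at -31 in Mup10, -11 in Mup3, -8 in Mup21 and -29 in Mup4). Mup4 and Mup10 both hold it, although their liver counts lay at opposite ends of the family. The palindrome TTCNNNGAA, the form bound by STAT5, which relays the growth hormone signal, was in 0 of the 12 windows and in 8.30% of all windows. At so low a share 0 of 12 says little, and the 12 windows are near copies, not independent cases. Sequence outside the windows was not searched, and STAT5 binding was not tested.

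The family made up 0.519% and 1.45% of all gene counts in the tumours, 8.45% and 6.50% in the KAP1-deleted livers, against 11.5% and 4.03% in the control livers. Its summed level was 3961 and 11877 CPM in the tumours, 97754 and 73952 CPM in the KAP1-deleted livers, against 131317 and 42491 CPM in the control livers. Both tumours lay below all 4 livers, and the 2 KAP1-deleted livers lay between the 2 control livers. The means were 7919 ± 5598 CPM in tumours, 85853 ± 16831 CPM in KAP1-deleted livers and 86904 ± 62809 CPM in control livers (SD, n = 2 each). The tumour mean was 10.8-fold below that of the KAP1-deleted livers and 10.97-fold below that of the control livers. The log2 ratio to the control livers was -3.46, with -2.44 without control liver 1 and -4.46 without tumour 2. The log2 ratio to the KAP1-deleted livers was -3.44, with -4.45 without tumour 2. Within a mouse, tumour 1 was 24.7-fold below its liver and tumour 2 was 6.23-fold below its liver. The KAP1-deleted livers averaged 0.988 times the control livers, while control liver 1 was 3.09-fold above control liver 2. The log2 of that ratio was -0.02, and 1.01 without control liver 1. No p-value is given for the sum, which is a description.

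**Figure D1:**
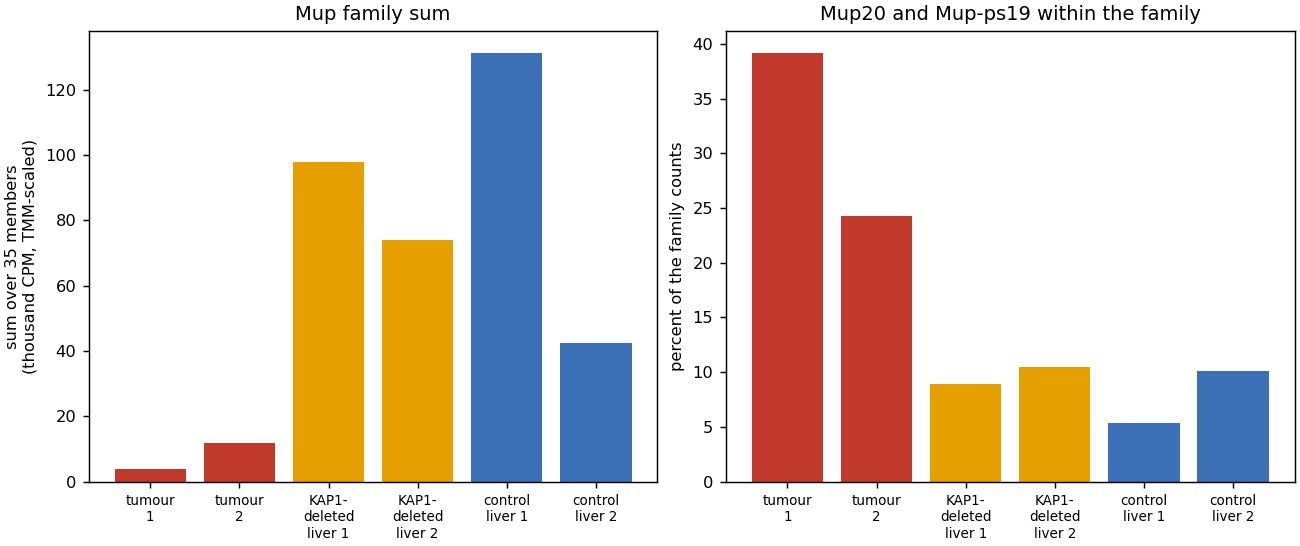
Left, the sum over the 35 family members in units of 1000 CPM for each library; right, the percent of the family's counts held by Mup20 and Mup-ps19. Bars are single libraries: both tumours have the lowest sums (3961 and 11877 CPM) and the highest shares (39.2% and 24.3%).

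Of the 35 members, 27 passed the filter on low counts, 17 genes and 10 pseudogenes, and each of these had at least 9 counts in every library. The remaining 8 (Mup4, Mup-ps5, Mup-ps18, Mup-ps20, Mup-ps21, Mup-ps22, Mup-ps23 and Mup-ps28) had at most 5 counts in any library and were not tested. Mup4 is known for expression in nasal and lacrimal glands of mice.

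Tumours were compared with the KAP1-deleted livers of the same mice, which sets neoplastic tissue beside non-tumour tissue of 1 genotype. By edgeR's quasi-likelihood test, 20 of 27 tested members fell, 11 genes and 9 pseudogenes, and 0 rose (adjusted p under 0.05 over all 17558 genes). Over all genes tested, 6.64% were called lower and 4.8% higher. An unadjusted edgeR p under 0.05 was seen for 26 members, all of them lower. Over all genes tested this held for 17.2% in the lower direction and 11.9% in the higher. In 26 members both tumours lay below both KAP1-deleted livers, which held for 34.8% of all genes; the opposite order held for 0 members and 28.7% of all genes. The median log2 fold change was -3.79 over the 17 genes and -2.45 over the 10 pseudogenes, against -0.03 over all genes tested.

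The 12 central genes had nearly the same profile. Mup10 had 328 and 1338 CPM in tumours and 12218 and 9339.9 CPM in KAP1-deleted livers, against 12822 and 5242 CPM in control livers. Mup19 had 253 and 867 CPM in tumours and 9731 and 6485 CPM in KAP1-deleted livers, against 10161 and 2716 CPM in control livers. Mup18 had 239 and 874 CPM in tumours and 8749 and 6173 CPM in KAP1-deleted livers, against 10104 and 3317 CPM in control livers. In all 3 genes the tumours lay below every liver, with tumour 1 the lowest library, and the control livers enclosed the KAP1-deleted livers. Mup11 had 226 and 809.6 CPM in tumours and 7864 and 5613 CPM in KAP1-deleted livers, against 12014 and 3405 CPM in control livers. Mup16 had 197 and 675 CPM in tumours and 7533 and 5031 CPM in KAP1-deleted livers, against 8207 and 2111 CPM in control livers. Mup13 had 184 and 623 CPM in tumours and 6585 and 4575 CPM in KAP1-deleted livers, against 7212 and 2190.4 CPM in control livers. These 3 kept the same order of libraries. Mup9 had 197 and 669.8 CPM in tumours and 7628 and 5033 CPM in KAP1-deleted livers, against 7506 and 2093 CPM in control livers. Here KAP1-deleted liver 1 was the highest library, by a narrow margin over control liver 1.

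The other central genes included Mup1, whose protein is known in mice for effects on glucose and lipid metabolism. It had 149 and 509.7 CPM in tumours and 5601 and 4096 CPM in KAP1-deleted livers, against 8550.0 and 2039 CPM in control livers. Mup2 had 167 and 569 CPM in tumours and 5900.3 and 4295 CPM in KAP1-deleted livers, against 7605 and 2156 CPM in control livers. Mup8 had 139 and 481 CPM in tumours and 5086 and 3689 CPM in KAP1-deleted livers, against 6371 and 1793 CPM in control livers. In these 3 genes the tumours again lay below all livers and the control livers lay furthest apart. Mup7 had 114 and 476 CPM in tumours and 4801 and 4659 CPM in KAP1-deleted livers, against 16039.6 and 3476 CPM in control livers. Mup14 had 91.5 and 344 CPM in tumours and 3558 and 2907 CPM in KAP1-deleted livers, against 8979.9 and 1929 CPM in control livers. Control liver 1 stood out most in these 2 genes. Over the 12 genes, tumour 1 was 34.9- to 42.0-fold below KAP1-deleted liver 1, and tumour 2 was 6.93- to 9.79-fold below KAP1-deleted liver 2. Control liver 1 was 2.45- to 4.65-fold above control liver 2 in them. Because these genes share most of their words, the 12 values are not 12 independent measurements.

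Of the central genes, 10 fell in tumours. The log2 fold change of Mup10 (ENSMUSG00000078680) against KAP1-deleted liver was -3.69 ± 0.76 (SE, edgeR adjusted p = 0.0255). Without tumour 1 its adjusted p was 0.0622, and without KAP1-deleted livers 1 and 2 it was 0.106 and 0.0987 (range 2.0e-26 to 0.106 over the alternatives). Mup7 (-4.00 ± 0.97, edgeR adjusted p = 0.0509) and Mup14 (-3.89 ± 0.95, adjusted p = 0.0532) did not pass the threshold. The pseudogene Mup-ps17 had 10.9 and 36.9 CPM in tumours and 362 and 267 CPM in KAP1-deleted livers, against 641 and 176 CPM in control livers. It followed the order of libraries of the central genes, with a log2 fold change of -3.72 ± 0.88 between tumour and KAP1-deleted liver (edgeR adjusted p = 0.0577).

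**Figure D2:**
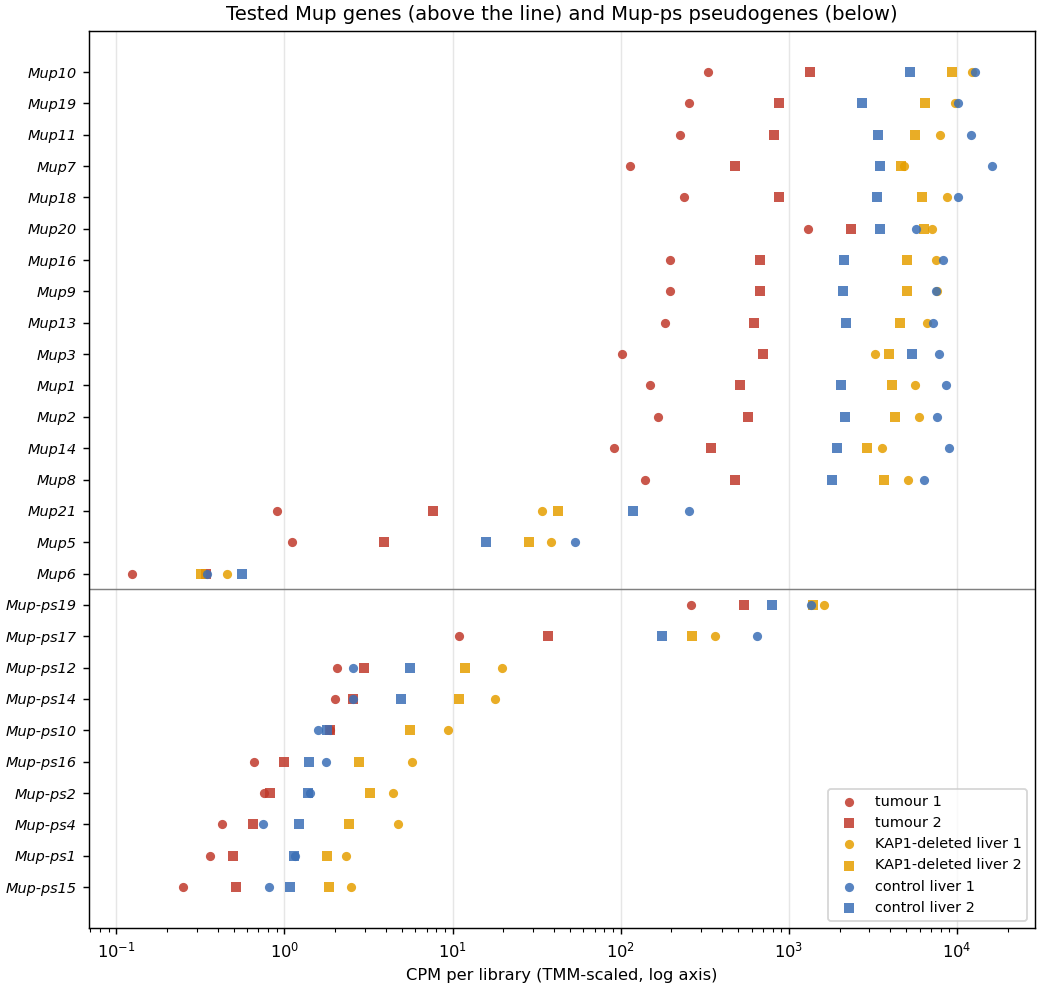
CPM of the 27 tested members in each library on a log axis, genes above the line and pseudogenes below, each sorted by mean CPM. Circles are replicate 1 and squares replicate 2; among genes of high level the tumours of Mup20 (1291 and 2345 CPM) lie closest to the livers.

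The gene of darcin had the smallest difference between tumour and liver among the genes of high level. Mup20 (ENSMUSG00000078672) had 1291 and 2345 CPM in tumours and 7125 and 6339 CPM in KAP1-deleted livers, against 5659.8 and 3486 CPM in control livers. Mup-ps19, which shares nearly all its words with Mup20, had 262 and 540.3 CPM in tumours and 1623 and 1395 CPM in KAP1-deleted livers, against 1360.1 and 794 CPM in control livers. In both, the KAP1-deleted livers lay above the control livers and the tumours below, with no overlap between groups. Mup20 fell in tumours against KAP1-deleted livers (log2 fold change -1.89 ± 0.40, edgeR adjusted p = 0.0239), and so did Mup-ps19 (-1.91 ± 0.41, adjusted p = 0.0250). Without tumour 1 the adjusted p of Mup20 was 0.108, and without KAP1-deleted livers 1 and 2 it was 0.0672 and 0.0594 (range 1.8e-08 to 0.108 over the alternatives). Mup-ps19 was likewise not called when any 1 of these 3 libraries was left out (range 7.5e-10 to 0.108).

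Summed, the pair was 3.71-fold below the KAP1-deleted livers in tumours by the group means, against 13.6-fold for the rest of the family. The rest of the family had 2408 and 8992 CPM in tumours and 89007 and 66218 CPM in KAP1-deleted livers. Its fold was 8.63 without tumour 1 and 32.2 without tumour 2, and that of the pair was 2.86 and 5.31, both chosen after the values were seen. The difference between these folds was not tested. The pair held 39.2% and 24.3% of the family's counts in tumours, 8.95% and 10.5% in KAP1-deleted livers, against 5.35% and 10.1% in control livers. Both tumours lay above all livers in this share, and control liver 1 had the lowest. Per kilobase of exon, Mup20 was the highest member in both tumours, at 1391 and 2527 CPM per kilobase. Mup-ps19 followed with 505 and 1041 CPM per kilobase, and Mup18 had 257 and 939.6 CPM per kilobase there. In the KAP1-deleted livers Mup18 had 9408 and 6637 CPM per kilobase, Mup19 9146 and 6095, Mup10 8784 and 6714, and Mup20 7678 and 6831 CPM per kilobase. Mup20 was thus also the highest member in KAP1-deleted liver 2. In the control livers it had 6099 and 3757 CPM per kilobase. The highest members there were Mup7 in control liver 1 (15527) and Mup3 in control liver 2 (5070). These orders depend on how shared reads were assigned, which is not known. A word of Mup20 occurred in a median of 2 genes, and a word of Mup18 in a median of 15. The exon lengths are those of the GRCm38 reference, while mm9 is the build named for the counts.

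Mup3 and Mup21, whose promoter windows are shown above, had another order of groups. Mup3 (ENSMUSG00000066154) had 102 and 696 CPM in tumours and 3248 and 3944 CPM in KAP1-deleted livers, against 7763 and 5415 CPM in control livers. Mup21 (ENSMUSG00000066153) had 0.897 and 7.61 CPM in tumours and 34.01 and 42.1 CPM in KAP1-deleted livers, against 254 and 117 CPM in control livers. In both genes the 3 groups did not overlap, with tumours lowest and control livers highest. Between KAP1-deleted and control liver the log2 fold change was -2.29 ± 0.98 for Mup21 (edgeR adjusted p = 0.996) and -0.87 ± 0.79 for Mup3 (adjusted p = 1), and neither was called. Between tumour and KAP1-deleted liver it was -3.17 ± 0.85 for Mup3 (edgeR adjusted p = 0.0638) and -3.18 ± 1.03 for Mup21 (adjusted p = 0.121). Tumour 2 was 6.83-fold above tumour 1 in Mup3 and 8.49-fold above it in Mup21. Mup3 and Mup21 were called lower without tumour 2, with adjusted p of 0.00474 and 0.00807, and Mup3 also without tumour 1, with 0.0348. Over their alternatives the adjusted p of Mup3 ranged from 1.6e-21 to 0.327 and that of Mup21 from 1.1e-31 to 0.547.

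Mup5 was a distinct gene of low level that followed the central group. It had 1.10 and 3.90 CPM in tumours and 38.7 and 28.3 CPM in KAP1-deleted livers, against 53.7 and 15.7 CPM in control livers. Its log2 fold change between tumour and KAP1-deleted liver was -3.76 ± 0.87 (edgeR adjusted p = 0.0562). Mup6 ranged from 0.124 to 0.560 CPM, its groups overlapped in each comparison with KAP1-deleted liver, and it was not called in any comparison.

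The 8 remaining tested pseudogenes had mean levels of 1.16 to 7.45 CPM. Mup-ps12 had 2.06 and 2.99 CPM in tumours and 19.7 and 11.8 CPM in KAP1-deleted livers, against 2.57 and 5.57 CPM in control livers. Mup-ps14 had 2.002 and 2.55 CPM in tumours and 17.9 and 10.8 CPM in KAP1-deleted livers, against 2.57 and 4.96 CPM in control livers. In both the KAP1-deleted livers stood above all other libraries. All 8 fell in tumours against KAP1-deleted livers, with log2 fold changes of -2.74 to -2.01. Mup-ps2 fell with a log2 fold change of -2.28 ± 0.29 (edgeR adjusted p = 0.00416) and kept its call without each library in turn (at most 0.0288 over the alternatives).

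The number of members called lower depended on single libraries. Genes outside the family, such as Cps1 and Cebpa, also lost their call without tumour 1. The share of all genes called is not given for the fits without a library or with a block. Whether the changes in number are particular to the family was not tested. Without tumour 1, 4 members were called lower (Mup3, Mup-ps1, Mup-ps2 and Mup-ps10). Without KAP1-deleted liver 1 it was 7 and without KAP1-deleted liver 2 it was 8, all of them low pseudogenes. Without tumour 2 it was 26, and without either control liver 22. A fit with the mouse as a block called 23, including all 20, but leaves 1 residual degree of freedom. DESeq2 called 26 members lower and 0 higher (9.03% and 7.14% of all genes), and limma-voom 18 lower and 0 higher (7.1% and 4.74% of all genes).

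Marker sums of 5 liver cell types had lower means in tumours than in either liver group, and that of lymphocytes a higher mean. For the calls below, 6.64% of all genes tested were called lower and 4.8% higher in tumours against KAP1-deleted livers. The summed hepatocyte markers were 22441 and 41112 CPM in tumours and 70337 and 80354 CPM in KAP1-deleted livers, against 78452 and 87899 CPM in control livers. The tumour mean was 2.37-fold below that of the KAP1-deleted livers, and 3 of the 6 markers fell (0 of 6 without tumour 1). The family's sum divided by this marker sum was 0.176 and 0.289 in tumours, 1.39 and 0.920 in KAP1-deleted livers, against 1.67 and 0.483 in control livers. Both tumours lay below all livers in this ratio as well. The marker sum is mostly Alb, so the ratio is largely one to albumin RNA. By group means Alb made up 26516 of 31777 CPM in tumours and 59143 of 75345.5 CPM in KAP1-deleted livers, against 67923 of 83176 CPM in control livers. Of 6 Kupffer cell and macrophage markers 3 fell, with sums of 106 and 127 CPM in tumours and 276 and 269.99 CPM in KAP1-deleted livers, against 268 and 270.4 CPM in control livers. The endothelial sums were 179 and 165 CPM in tumours and 267 and 274 CPM in KAP1-deleted livers, against 248 and 265 CPM in control livers. Of that list 1 of 6 fell against KAP1-deleted livers, Clec4g, and 2 fell without either control liver. Blocking by mouse gave 3. The stellate cell sums were 127 and 283 CPM in tumours and 366 and 458 CPM in KAP1-deleted livers, against 426 and 410.1 CPM in control livers. Here 2 of 6 fell, Des and Rgs5, with 1 without tumour 1 or either KAP1-deleted liver, 5 without tumour 2 and 4 with the block. The cholangiocyte sums were 3.05 and 21.99 CPM in tumours and 27.9 and 34.5 CPM in KAP1-deleted livers, against 15.5 and 31.8 CPM in control livers. edgeR called 0 of the 4 tested (3 had an unadjusted p under 0.05), DESeq2 and limma-voom called 1 each, 2 fell without tumour 2 and 1 with the block. The lymphocyte sums were 32.1 and 65.7 CPM in tumours and 30.4 and 39.0 CPM in KAP1-deleted livers, against 36.9 and 29.1 CPM in control livers. Tumour 1 lay within the range of the livers and tumour 2 above it, and edgeR called 0 of 6 against KAP1-deleted livers (1 had an unadjusted p under 0.05). DESeq2 called 1 higher and limma-voom 0, while 2 rose with the block and 1 fell without KAP1-deleted liver 1. Against control livers Cd8a rose (log2 fold change 2.45, edgeR adjusted p = 0.0299), a call lost without tumour 2 or either control liver (adjusted p of 0.0738 to 0.138, range 2.5e-05 to 0.138). No tested marker of these 6 lists was at 0 in any library. In bulk tissue fewer hepatocytes and less Mup RNA per hepatocyte cannot be told apart, and the part of cell composition in the falls was not tested.

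KAP1-deleted livers were compared with control livers to ask whether the family differs in non-tumour liver that lacks hepatic KAP1. The Mup genes showed no called change, and 1 pseudogene of low level, Mup-ps10, rose. Among the central genes the SE of the log2 fold change was 0.68 (Mup10) to 0.87 (Mup7). The absence of calls therefore does not show equal levels. Of 27 tested members 1 rose and 0 fell by edgeR, and over all genes 0.239% were called higher and 0.0968% lower. An unadjusted edgeR p under 0.05 was seen for 8 members, all higher. Over all genes tested this held for 3.27% in the higher direction and 2.17% in the lower. In 10 members the KAP1-deleted livers lay above both control livers (16.7% of all genes), and in 2, Mup3 and Mup21, below both (14.6% of all genes). Of the 10, 9 were pseudogenes, which share words with other members and are not independent measurements. The median log2 fold change was 0.06 over the 17 genes and 1.45 over the 10 pseudogenes, against 0.00 over all genes tested.

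The called member was Mup-ps10 (ENSMUSG00000082173). It had 1.86 and 1.87 CPM in tumours and 9.42 and 5.59 CPM in KAP1-deleted livers, against 1.59 and 1.80 CPM in control livers. Both KAP1-deleted livers stood above all other libraries. Its log2 fold change was 2.14 ± 0.30 (edgeR adjusted p = 0.0400). Leaving out any library other than KAP1-deleted liver 2 ended this call. The adjusted p was 0.0848 and 0.0833 without tumours 1 and 2, 0.117 without KAP1-deleted liver 1, and 0.126 and 0.0819 without control livers 1 and 2 (range 1.1e-09 to 0.126 over the alternatives). The other 7 low pseudogenes had log2 fold changes of 0.84 to 1.94 with adjusted p of 0.121 to 0.770, and none passed the threshold. DESeq2 called 5 members higher (Mup-ps2, Mup-ps4, Mup-ps10, Mup-ps12 and Mup-ps14) and 0 lower, with 0.866% and 0.444% of all genes. limma-voom called 0 in either direction, with 0.148% of all genes higher and 0.0683% lower. The 8 low pseudogenes summed to 8.38 and 10.9 CPM in tumours and 66.7 and 40.3 CPM in KAP1-deleted livers, against 12.6 and 18.5 CPM in control livers. They held at most 0.212% of the family's counts in any library.

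**Figure D3:**
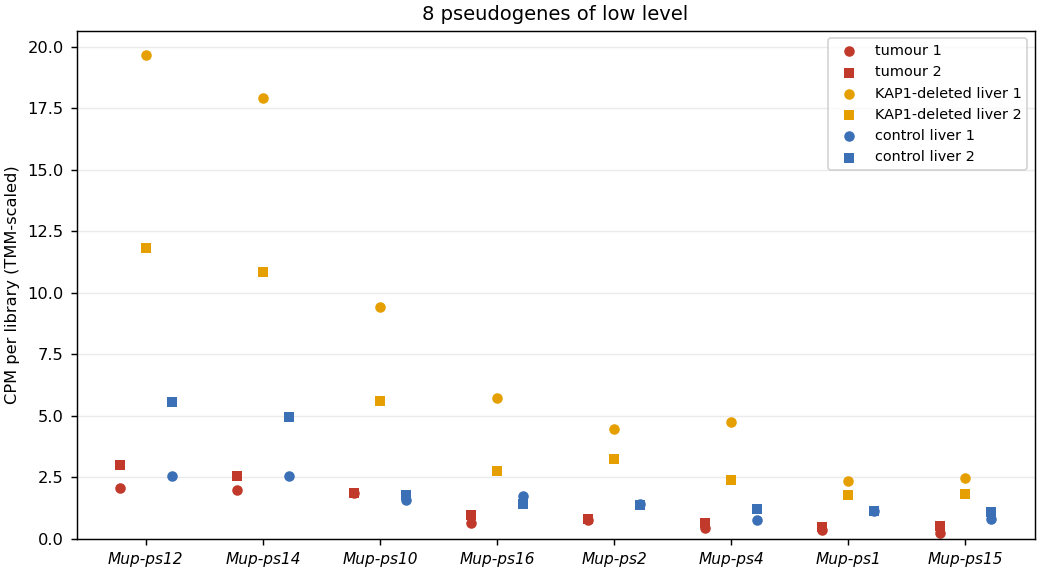
CPM of the 8 tested pseudogenes of low level in each library on a linear axis, with tumours, KAP1-deleted livers and control livers from left to right within each gene. In all 8 both KAP1-deleted livers lie above all other libraries; Mup-ps12 has 19.7 and 11.8 CPM there and at most 5.57 CPM elsewhere.

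Counts of these pseudogenes may include reads of other genes. They had 1.32% to 26.3% words of their own, and 22.7% to 71.1% of their words were found in no gene outside the 49 family symbols of the reference. The rest were shared mainly with 3 predicted genes, Gm21286, which was not analysed here, Gm13775 and Gm13773. Mup-ps16 shared 38.0% of its words with Gm13775 and Mup-ps10 shared 21.7%. The pseudogenes also share words with each other, for example 81.5% of those of Mup-ps14 with Mup-ps12 and 78.7% of those of Mup-ps2 with Mup-ps10. The values of these pseudogenes are therefore not independent measurements. Gm13775 had 7.52 and 14.8 CPM in tumours and 103 and 74.9 CPM in KAP1-deleted livers, against 19.9 and 30.4 CPM in control livers. Its KAP1-deleted livers too stood above all other libraries, with log2 fold changes of 1.82 ± 0.36 for KAP1-deleted against control liver (edgeR adjusted p = 0.146) and -3.003 ± 0.38 for tumour against KAP1-deleted liver (adjusted p = 0.00492). Reads of overlapping antisense transcripts may be included, since the sources used here do not say how strand was counted.

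Tumours were also compared with control livers, a comparison that uses the same tumour libraries as the one above. In it 17 of 27 members fell, 15 genes and 2 pseudogenes, and 0 rose, against 7.76% of all genes called lower and 6.15% called higher. DESeq2 called 19 lower (9.84% of all genes; 8.3% called higher) and limma-voom 12 lower (7.76%; 6.09% called higher), and both called 0 members higher. Of the members, 21 had an unadjusted edgeR p under 0.05, all of them lower. Over all genes tested this held for 17.0% in the lower direction and 13.0% in the higher. In 25 members both tumours lay below both control livers (29.9% of all genes) and in 1, Mup-ps10, above both (26.5% of all genes). The median log2 fold change was -3.72 over the 17 genes and -0.92 over the 10 pseudogenes, against -0.02 over all genes tested. Mup10 fell with -3.44 ± 0.75 (edgeR adjusted p = 0.0272), Mup3 with -4.05 ± 0.89 (adjusted p = 0.0326) and Mup21 with -5.46 ± 1.14 (adjusted p = 0.0410). Mup20 had -1.33 ± 0.39 (edgeR adjusted p = 0.0603), and leaving out control liver 2 gave 0.0462 (0.000144 to 0.224 under all alternatives). Mup-ps10 had a log2 fold change of 0.13 ± 0.30 (edgeR adjusted p = 0.802). The number called lower was 0 without control liver 1 or either KAP1-deleted liver, 2 without tumour 1 (Mup3 and Mup21), 13 without control liver 2 and 17 without tumour 2. With the 4 libraries of these 2 groups alone it was 0.

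**Figure D4:**
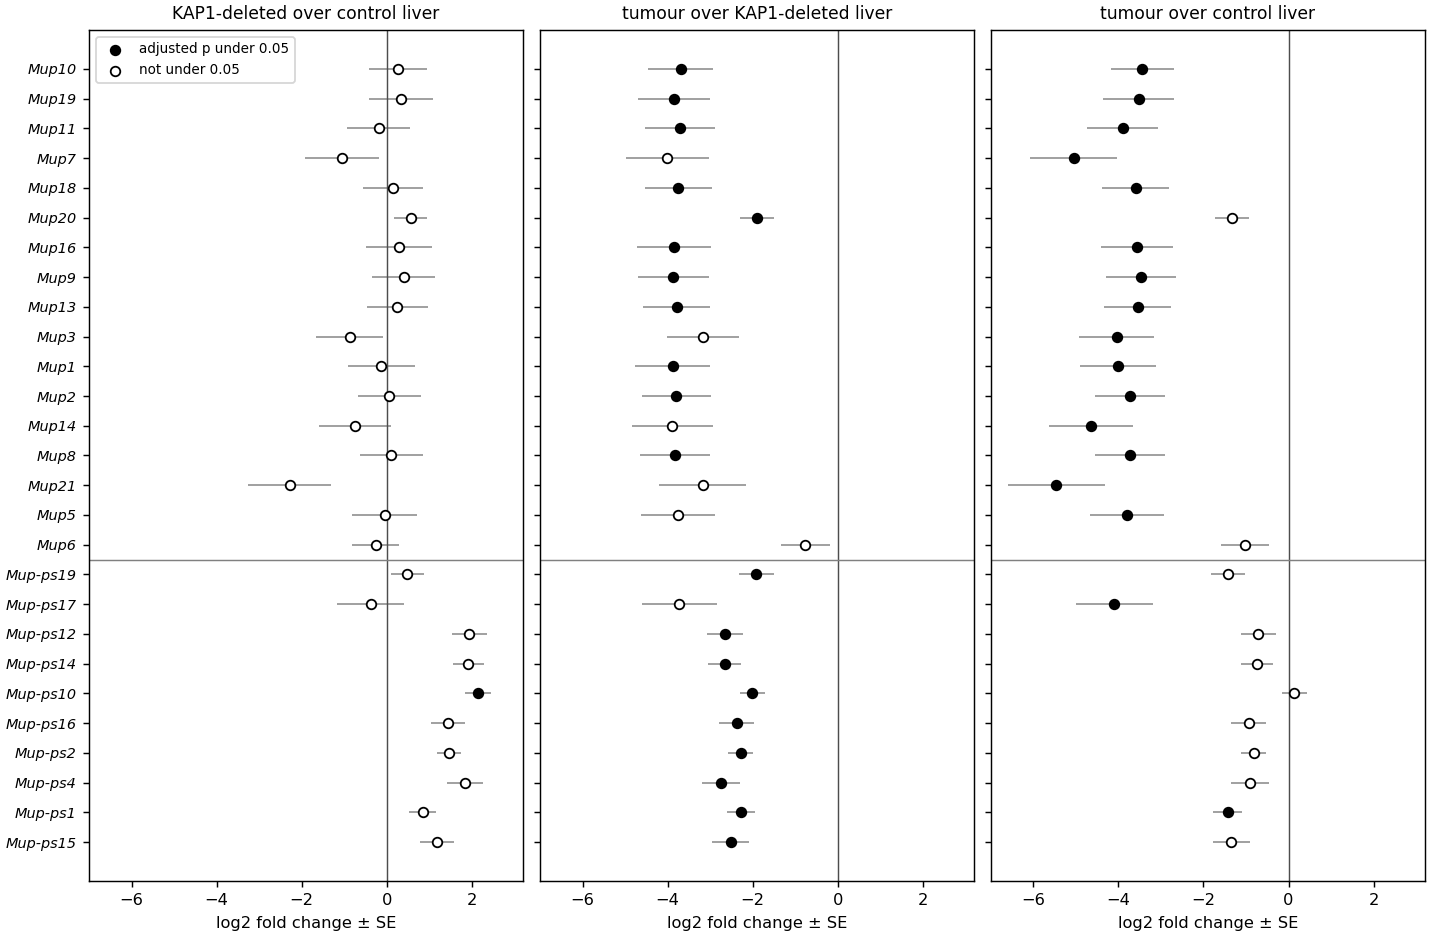
Log2 fold change ± SE of each tested member in the 3 comparisons, sorted as in the plot of levels by library. Filled points have an edgeR adjusted p under 0.05: 1 member in KAP1-deleted over control liver, 20 in tumour over KAP1-deleted liver and 17 in tumour over control liver.

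The hormone pathway that drives the family was examined through 11 growth hormone signalling genes. None was called between KAP1-deleted and control liver by edgeR, DESeq2 or limma-voom, and 1 had an unadjusted edgeR p under 0.05. Against KAP1-deleted livers, 3 of 11 fell in tumours (Igfals, Igf1 and Onecut1) and 0 rose, with 6.64% and 4.8% of all genes. Igfals, a binding partner of circulating IGF1, had 11.5 and 14.2 CPM in tumours and 41.8 and 60.4 CPM in KAP1-deleted livers, against 35.1 and 62.7 CPM in control livers. Both tumours lay below all livers, and the log2 fold change was -1.99 ± 0.31 (edgeR adjusted p = 0.00888, and 0.0725 without tumour 1, the highest over the alternatives, the lowest being 5.7e-15). Igf1, the main growth hormone target, was not called with the mouse as a block (adjusted p = 0.123, range 1.4e-22 to 0.194). The number that fell was 2 with that block, and 1 without tumour 1, either KAP1-deleted liver or either control liver. The growth hormone receptor gene Ghr had 256 and 349 CPM in tumours and 395 and 494 CPM in KAP1-deleted livers, against 568 and 623 CPM in control livers. Its groups did not overlap, and it fell in tumours against control livers (log2 fold change -0.98 ± 0.24, edgeR adjusted p = 0.0355). That call was lost without any library other than control liver 1 (adjusted p of 0.0519 to 0.168, range 0.00198 to 0.168 over the alternatives).

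Of 11 tested regulators linked to Mup expression, Trim28 fell and Trim24 rose in KAP1-deleted against control liver (0.0968% and 0.239% of all genes). Cebpa fell in tumours against KAP1-deleted livers (6.64% of all genes). Trim24, a cofactor related to KAP1, was not called without either tumour, KAP1-deleted liver 1 or control liver 2 (adjusted p of 0.0631 to 0.0848, range 5.7e-10 to 0.137 over the alternatives). Cebpa, a transcription factor of hepatocytes, had 44.9 and 50.1 CPM in tumours and 138 and 166 CPM in KAP1-deleted livers, against 106 and 157 CPM in control livers. Both tumours lay below all livers, with a log2 fold change of -1.68 ± 0.23 against KAP1-deleted livers (edgeR adjusted p = 0.00589, and 0.0529 without tumour 1, range 5.9e-10 to 0.0529 over the alternatives). Rsl1, a KRAB zinc finger gene known in mice for restraining male-specific liver genes, had 3.55 and 3.27 CPM in tumours and 3.04 and 2.44 CPM in KAP1-deleted livers, against 2.19 and 1.78 CPM in control livers. Its tumour libraries were highest and its control libraries lowest, and its log2 fold change between KAP1-deleted and control liver was 0.47 ± 0.26 (edgeR adjusted p = 1).

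Of 16 other genes with male-biased liver expression, 1 rose (Selenbp2) and 1 fell (Cyp7b1) in KAP1-deleted against control liver, and neither was called without tumour 1 or tumour 2. Selenbp2 was also lost without either control liver (range 1.4e-20 to 0.158), and Cyp7b1 without either KAP1-deleted liver (range 1.0e-33 to 0.129). Against KAP1-deleted livers, 6 fell and 1, C6, rose in tumours, with 6.64% and 4.8% of all genes. The call of C6 was lost without either tumour or KAP1-deleted liver 1 (adjusted p of 0.0516 to 0.0685, range 9.8e-12 to 0.0685). The falls numbered 3 without tumour 1 or KAP1-deleted liver 2, 10 without either control liver and 13 when blocked by mouse. Cyp4a12a, a fatty acid hydroxylase of male liver, had 29.3 and 51.1 CPM in tumours and 156 and 177 CPM in KAP1-deleted livers, against 84.8 and 76.3 CPM in control livers. Its KAP1-deleted libraries were highest and its tumours lowest, with a log2 fold change of -2.05 ± 0.27 for tumour against KAP1-deleted liver (edgeR adjusted p = 0.00499). The median log2 fold change of these 16 genes was -1.47 there, and -0.06 between KAP1-deleted and control liver.

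Among other lipocalins, 8 of 15 listed genes were tested. The shares over all genes in tumours against KAP1-deleted livers were 6.64% called lower and 4.8% called higher. In tumours against KAP1-deleted livers 4 fell (Orm1, Apom, Orm2 and Orm3) and 0 rose, and the number that fell was 2 without tumour 1, either KAP1-deleted liver or either control liver. Orm1, an acute-phase carrier protein of plasma, had 49.5 and 135 CPM in tumours and 728 and 518 CPM in KAP1-deleted livers, against 467 and 477 CPM in control livers. The tumours lay far below all livers (log2 fold change against KAP1-deleted livers -2.75 ± 0.46, edgeR adjusted p = 0.0122). Leaving out control liver 1 or 2 gave an adjusted p of 0.0542 or 0.0554, and blocking by mouse gave 0.0551 (range 3.7e-21 to 0.0554 over the alternatives). The block also ended the call of Orm2 (adjusted p = 0.198, range 7.6e-11 to 0.198). Between KAP1-deleted and control liver edgeR called 0 of the 8 (2 had an unadjusted p under 0.05), DESeq2 1 and limma-voom 0.

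The genes on both sides of the cluster had medians closer to 0 than the family. Of the 20 tested genes before it in the gene order of the reference, 9 had a log2 fold change below 0 in tumours against KAP1-deleted livers. Their median was 0.02, and 1 fell and 1 rose. Of the 20 after it, 17 were below 0, with a median of -0.42, and 5 fell and 1 rose. In this comparison 6.64% of all genes tested were called lower and 4.8% higher. The 5 were Orm1, Orm2 and Orm3, already counted among the lipocalins, Kif12 (log2 fold change -2.69) and Col27a1 (-2.59), of which only Orm2 had a smaller difference than Mup20. The falls numbered 3 without tumour 1, KAP1-deleted liver 1 or either control liver, and 2 without KAP1-deleted liver 2. The nearest genes were Snx30 and Inip before the cluster and Zfp37 and Slc31a2 after it, and none of these was called in any comparison. Inip, for instance, had 3.22 and 3.65 CPM in tumours and 3.41 and 3.75 CPM in KAP1-deleted livers, against 3.38 and 3.60 CPM in control livers. Between the members lay 4 tested genes outside the family, all predicted genes, of which 3 fell in tumours against KAP1-deleted livers (Gm13773, Gm13775 and Gm12909). Gm13773 had 2.72 and 2.27 CPM in tumours and 14.1 and 13.1 CPM in KAP1-deleted livers, against 8.22 and 6.62 CPM in control livers. Its groups did not overlap, the KAP1-deleted livers were highest, and it fell with a log2 fold change of -2.45 ± 0.22 (edgeR adjusted p = 0.00130).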

How the data were processed

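Libraries of total RNA were stranded (TruSeq), per the labels' protocols. The authors deposited raw counts, 1 whole number for each Ensembl gene. TopHat, HTSeq 0.6.1 and build mm9 are named, per the submitters' processing notes. Annotation release, strand setting and treatment of reads with several alignments: not given in the sources used here. The entry for multiple alignments is 0 in each library, and ambiguous reads made up 1.73% to 2.87%. Entries that name no gene (20.9% to 36.7%) were left out. Symbols come from GRCm38 by Ensembl identifier (32919 of 37991 matched), and 14 of the 49 family symbols of that reference were not analysed here.

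The test was edgeR 4.0.16 under R 4.3.3 (filterByExpr with minimum count 10 and minimum total 15, TMM, robust quasi-likelihood fit of 1 mean per group over all 6 libraries, 3 residual degrees of freedom). P-values were two-sided and Benjamini-Hochberg adjusted over 17558 genes, with a threshold of 0.05. SEs were derived from the log2 fold change and its F statistic. The fit was tested on simulated data with 1 common spread for all genes. It recovered 50 of 50 genes changed by a log2 fold of 3 in tumours, and 11 of 50 changed by 1. Alternatives used DESeq2 1.42.0, limma-voom (limma 3.58.1), other scalings and filters, each library left out, and the mouse as a block. The mouse codes in the titles pair a tumour with a KAP1-deleted liver, and their deviations from the group means correlated with r = 0.185 across genes. No pair of replicates looked like 1 library deposited again (chi-square over degrees of freedom 82.6 to 321).

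Named with values were Mup genes with a mean of at least 1 CPM and the 4 highest pseudogenes, with up to 4 genes per list. Mup-ps10, Mup-ps2, Mup6, Rsl1, Gm13773, Gm13775, Kif12, Col27a1, Clec4g, Des, Rgs5 and Cd8a were named after their values were seen. Members and lists were chosen with earlier results of these data known. All libraries carry 1 batch label.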

Additional observations from a re-analysis of the deposited data

How the results depend on the processing

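For KAP1-deleted against control liver, the number of members called higher was 1, against 6 with no filter on low counts, 0 with a mean CPM of at least 5, 5 with DESeq2, 0 with limma-voom, 0 with the 4 libraries compared alone, and 0 to 2 when each library was left out. The number called lower was 0, against 2 with no filter (Mup7 and Mup21). The log2 ratio of the family sum was -0.02, and -0.63 to 1.01 when a library was left out. For tumour against KAP1-deleted liver, the number called lower was 20, and 4 to 26 when a library was left out. With a replicate block by mouse it was 23, and the mean log2 ratio of the family sum within a mouse was -3.63, against -3.44 without the block and -4.45 to -2.86 when a library was left out. For tumour against control liver, the number called lower was 17, against 0 with the 4 libraries compared alone and 0 to 17 when a library was left out. The log2 ratio of the family sum was -3.46 there, and -4.46 to -2.44 when a library was left out. No direction of a called member reversed under any alternative run. The other scalings (DESeq2 size factors, upper quartile, and TMM without the family) gave 16 to 20 lower calls in the tumour comparisons. The cause of these differences was not tested. When a group keeps 1 library, that library is assumed to vary like the others. With 2 libraries per group, the counts of calls say little about single genes of the central group, which share most of their sequence.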

Other observations

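Of the identifiers without a symbol, 6 had a mean of at least 1000 CPM, and 3 of these had ratios between libraries within the ranges of the central Mup genes. ENSMUSG00000073839 had 122 and 433 CPM in tumours and 4602 and 3448 CPM in KAP1-deleted livers, against 7644 and 1844 CPM in control livers. ENSMUSG00000089681 had 152 and 519 CPM in tumours and 5407 and 3992 CPM in KAP1-deleted livers, against 6751 and 1938 CPM in control livers. Tumour 1 was 35.7- to 38.3-fold below KAP1-deleted liver 1 over the 3, and tumour 2 was 7.69- to 8.07-fold below KAP1-deleted liver 2. The files and the reference give these identifiers no name, they are not counted in the family, and they were chosen after their values were seen.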
